A study of Mus musculus with 12 samples.

Results

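The Runx family was examined as 4 gene loci in open chromatin profiles of 2 mouse cell types, embryonic stem cells (mESCs) and embryonic fibroblasts (MEFs). Its members were all accessible regions (peaks) that overlapped the annotated body of Runx1, Runx2, Runx3 or Cbfb, extended by 20 kb on either side. This rule gave 66 of the 91354 peaks of the BGI peak set, of which 26 belonged to Runx1, 23 to Runx2, 11 to Runx3 and 6 to Cbfb. It gave 62 of the 87027 peaks of the Illumina peak set, with 23, 22, 11 and 6 peaks in the same order. Of the 66 BGI peaks, 53 shared at least 50% of their width with a peak that also entered the Illumina set.

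Accessibility was read by Omni-ATAC-seq, in which the transposase Tn5 cuts and tags open DNA. MEFs (sorted as THY1+) and mESCs (sorted as THY1-/SSEA1+/EPCAM+), all of C57/Bl6 background and with no further treatment given in the labels, contributed 3 libraries each, described as biological replicates. The MEF libraries carry the numbers 1, 2 and 4, and the mESC libraries the numbers 1, 3 and 5. Each of the 6 libraries was read on both an Illumina HiSeqX10 and a DNBSEQ-G400 (BGI) instrument, which made 12 samples in 4 groups of 3, and BGI and Illumina values of a library are thus repeated readings and not further replicates.

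RUNX1, RUNX2 and RUNX3 are transcription factors that bind DNA through the conserved runt domain, and CBFβ, the product of Cbfb, is the non-DNA-binding partner that strengthens this binding. RUNX1 is known for its role in the emergence of blood stem cells, RUNX2 as the master regulator of bone formation that is also active in mesenchymal cells, and RUNX3 for roles in sensory neurons and in lymphoid and gut cells. Each Runx gene has a distal promoter, P1, and a proximal promoter, P2, which give proteins that differ at their amino termini.

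The annotation placed Runx1 at chr16:92601466-92826149 (minus strand), Runx2 at chr17:44495987-44814797 (minus strand), Runx3 at chr4:135120652-135177990 (plus strand) and Cbfb at chr8:105170674-105217989 (plus strand), in GENCODE M21 on GRCm38. For 6 promoters, the stretches of 150 bases that end just before the first transcription start site (TSS) are given here to show how the distal and proximal promoters differ in base composition. They lie at chr16:92826150-92826299 (Runx1 P1), chr16:92697329-92697478 (Runx1 P2), chr17:44814798-44814947 (Runx2 P1), chr4:135120502-135120651 (Runx3 P1), chr4:135152346-135152495 (Runx3 P2) and chr8:105170524-105170673 (Cbfb), each read 5′ to 3′ on the strand of its gene from the GRCm38 reference. Capitals mark matches to the RUNX core TGTGGT, or its reverse complement ACCACA, and to the AP-1 motif TGANTCA, of which only Runx3 P1 holds any in these stretches.
Runx1 P1: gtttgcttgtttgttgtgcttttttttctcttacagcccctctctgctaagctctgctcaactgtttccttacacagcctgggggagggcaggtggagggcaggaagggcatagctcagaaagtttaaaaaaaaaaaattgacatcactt
Runx1 P2: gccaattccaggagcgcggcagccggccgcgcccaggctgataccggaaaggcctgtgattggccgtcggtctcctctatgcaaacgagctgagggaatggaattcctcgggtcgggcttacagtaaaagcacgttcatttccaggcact
Runx2 P1: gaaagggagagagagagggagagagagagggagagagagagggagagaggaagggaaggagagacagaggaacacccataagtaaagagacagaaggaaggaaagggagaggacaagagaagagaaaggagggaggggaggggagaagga
Runx3 P1: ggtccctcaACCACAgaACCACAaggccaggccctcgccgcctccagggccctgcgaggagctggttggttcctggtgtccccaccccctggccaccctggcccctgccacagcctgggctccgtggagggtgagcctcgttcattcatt
Runx3 P2: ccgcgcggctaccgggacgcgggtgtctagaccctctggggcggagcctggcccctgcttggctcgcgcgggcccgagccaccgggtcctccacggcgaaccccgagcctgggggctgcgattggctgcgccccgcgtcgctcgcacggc
Cbfb promoter: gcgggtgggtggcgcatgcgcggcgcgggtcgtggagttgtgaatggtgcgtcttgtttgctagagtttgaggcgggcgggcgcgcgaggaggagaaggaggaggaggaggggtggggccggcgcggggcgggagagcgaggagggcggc

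The P1 sequences were poorer in CpG than the P2 sequences of Runx1 and Runx3. Over the 1001 bases centred on the first TSS, the ratio of observed to expected CpG was 0.31 at Runx1 P1, 0.16 at Runx2 P1 and 0.36 at Runx3 P1. It was 0.86 at Runx1 P2, 0.95 at Runx3 P2 and 0.93 at Cbfb, beside a median of 0.58 over 21581 protein-coding genes. The RUNX core occurred 4 times in the window at Runx1 P1, 5 times at Runx2 P1 and 3 times at Runx3 P1, and in none of the windows at Runx1 P2, Runx3 P2 and Cbfb. Of all protein-coding promoters, 41% held the core in a window of this length. A match is a description of the letters and does not show that a factor was bound.

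The labelled cell types were checked against marker genes at their promoter peaks. All 8 pluripotency genes tested, among them Pou5f1, Nanog and Zfp42, were higher in mESCs on either platform, and 8 of 9 fibroblast genes, among them Thy1, Col1a2 and Prrx1, were lower, Pdgfra being the exception. Of 7 blood genes, 5 had no promoter peak in the BGI set (Ptprc, Adgre1, Spi1, Tyrobp and Itgam), while Csf1r was lower and Cd68 higher in mESCs. The summed level of the blood list was 24.3 to 28.5 CPM in BGI MEFs and 50.7 to 60 CPM in BGI mESCs. This sum holds Csf1r and Cd68 alone and mainly follows Cd68 in mESCs. Cd68 held 11.1 ± 3.03 CPM in BGI MEFs and 53.8 ± 3.83 in BGI mESCs, and Csf1r 15.9 ± 1.38 and 2.13 ± 0.977. Of 5 endothelial genes, Pecam1, Kdr and Tek had a promoter peak. Their edgeR adjusted p lay between 0.0658 and 0.494 on BGI and between 0.0803 and 0.884 on Illumina. The part of other cell types in the results that follow was not tested. Reads counted in peaks ranged from 15860985 to 21662775 per sample. All peaks of both sets were 502 bp wide, so levels of different peaks do not differ through width. Peaks do differ in base composition, which went with the platform difference described below, so comparisons of level between peaks hold for the platform named. Levels are given as CPM, the read count of a peak scaled to the sample's total of reads in peaks.

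Most of the called peaks at the family loci were more open in MEFs. On BGI, 45 of the 66 peaks were lower and 9 higher in mESCs, and on Illumina 45 of 62 were lower and 8 higher (edgeR quasi-likelihood test, Benjamini-Hochberg adjusted p under 0.05). Differences between these cell types were the rule genome-wide: 84.1% of all BGI peaks and 84.5% of all Illumina peaks were called, so that the 81.8% and 85.5% called at the family loci were close to the background. The direction was less even than among all peaks, of which 43.2% were lower and 40.9% higher in mESCs on BGI, and 42.4% and 42.1% on Illumina, whereas 68.2% of the family peaks were lower and 13.6% higher on BGI. The median log2 fold change, mESC over MEF, was -2.20 over the 66 BGI peaks and -2.22 over the 62 Illumina peaks, beside -0.08 and -0.03 over all peaks. The values of the 3 MEFs and the 3 mESCs did not overlap at 55 of 66 BGI peaks (85.1% of all peaks) and at 54 of 62 Illumina peaks (85.6% of all peaks).

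The 4 loci did not share 1 direction. At Runx1, 23 of 26 BGI peaks were lower in mESCs and 1 was higher, and at Runx2 17 of 23 were lower and 2 higher. At Cbfb, 4 of 6 were lower and none higher. Runx3 stood apart in direction, with 1 peak lower, 6 higher and 4 not called. The Illumina set gave 21 lower and 1 higher of 23 at Runx1, 18 lower and 2 higher of 22 at Runx2, 4 lower and 0 higher of 6 at Cbfb, and 2 lower and 5 higher of 11 at Runx3. The plot of fold changes along the loci shows where these peaks lie.

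**Figure D1:**
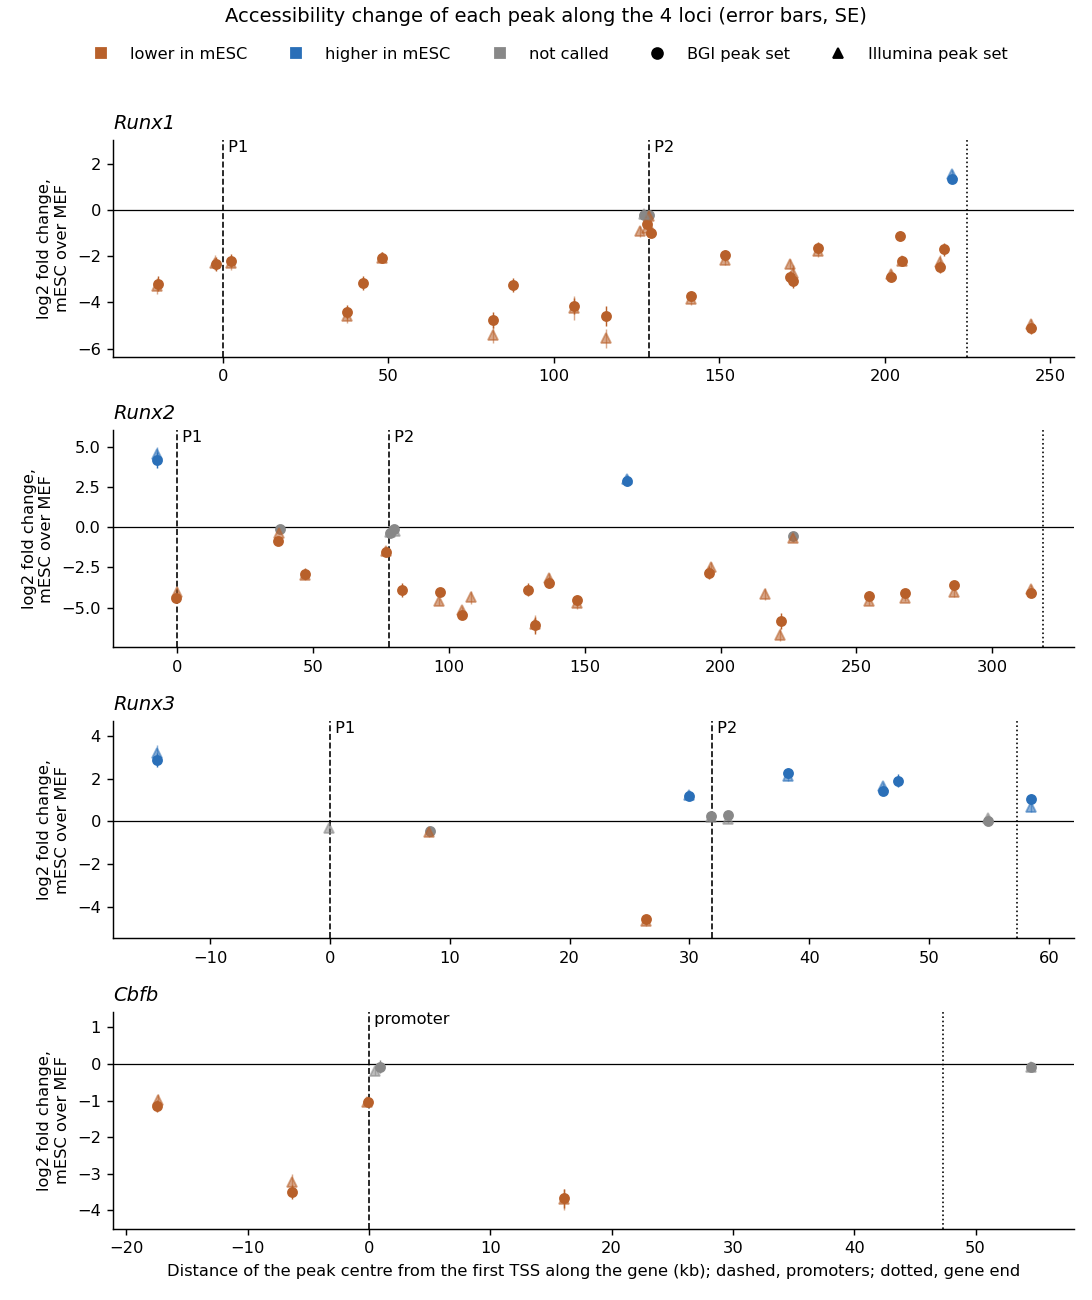
Each point is a peak at its distance (kb) from the first TSS of the gene, with the log2 fold change of mESC over MEF and its SE on the vertical axis. Circles are BGI peaks and triangles Illumina peaks, and dashed and dotted lines mark promoters and gene ends. At Runx1 and Runx2 the intronic peaks lie mostly between -1 and -6 while the P2 peaks lie at -0.98 or above, and at Runx3 6 BGI peaks were called higher in mESCs.

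All 66 BGI peaks and 62 Illumina peaks passed the count filter. A peak entered a set because it was reproducible in at least 1 cell type, and of the 66 BGI peaks 45 were on the MEF list alone, 8 on the mESC list alone and 13 on both, so most peaks were selected for their openness in 1 cell type. Of the 45 peaks on the MEF list alone, 42 were lower in mESCs and 3 were not called, and of the 8 on the mESC list alone, 6 were higher, 1 was lower and 1 was not called, counts in which the selection itself favours that direction. In sorted but bulk samples, openness in fewer cells and less openness per cell cannot be told apart.

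Summed over a locus, accessibility in MEFs exceeded that in mESCs at Runx1, Runx2 and Cbfb. The Runx1 peaks of the BGI set held 311 ± 20.7 CPM in MEFs and 123 ± 6.11 in mESCs (mean ± SD, n = 3), a ratio of 2.54. The Runx2 peaks held 284 ± 9.50 and 90.3 ± 2.35 CPM, a ratio of 3.15. The Cbfb peaks held 146 ± 6.08 and 78.3 ± 2.65 CPM, a ratio of 1.86. At Runx3 the order was opposite, with 70.4 ± 5.35 CPM in MEFs and 100 ± 9.93 in mESCs. In none of the 4 loci did the 2 cell types overlap, on either platform. These sums are descriptions over peaks that entered the set for being called in a cell type.

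Summits called by the authors' peak caller in each sample alone gave a separate view of the loci. At Runx1, 109 to 118 summits were called in the 6 MEF samples and 25 to 40 in the 6 mESC samples. At Runx2 the ranges were 65 to 84 and 19 to 24. The counts overlapped at Runx3, where MEFs had 25 to 38 and mESCs 25 to 37, and at Cbfb, with 18 to 23 and 15 to 26. The Runx3 counts depended on weak summits. With summits of a −log10 p of at least 10 alone, Runx3 had 12 to 15 in BGI MEFs and 17 to 19 in BGI mESCs, and 11 to 14 and 15 to 22 on Illumina, so that mESCs were higher without overlap within each platform. At this cutoff MEFs still lay above mESCs at Runx1 (44 to 49 against 8 to 16) and Runx2 (36 to 44 against 10 to 14), and Cbfb overlapped (9 to 13 in both). Genome-wide, weak summits included, 216566 to 230117 summits were called in the MEF samples and 229198 to 276268 in the mESC samples. No genome-wide count was made at the cutoff of 10, so the counts at that cutoff have no background beside them.

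**Figure D2:**
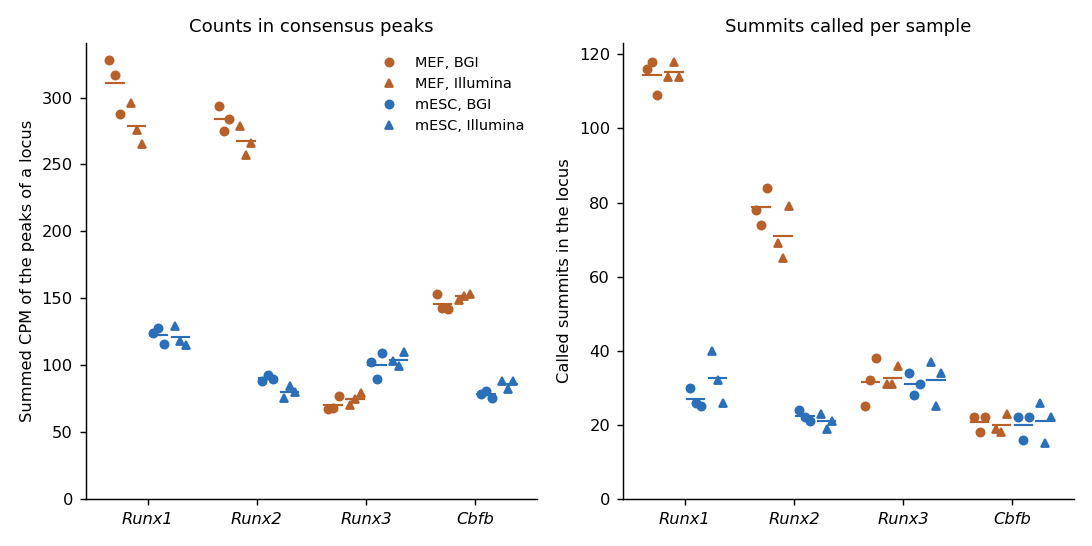
The left panel gives the summed CPM of the peaks of each locus and the right panel the number of called summits, with 1 point per sample and short lines at the group means. In the left panel MEFs lie above mESCs at Runx1, Runx2 and Cbfb and below them at Runx3, and in the right panel, which counts all called summits, weak ones included, the cell types separate at Runx1 and Runx2 and overlap at Runx3 and Cbfb.

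Runx2 had an open distal promoter in MEFs and almost none in mESCs. The P1 peak at chr17:44814778-44815279, whose centre lies at -0.231 kb from the first TSS (negative distances are upstream), held 10.4, 9.79 and 10.3 CPM in MEFs 1, 2 and 4 and 0.504, 0.473 and 0.497 CPM in mESCs 1, 3 and 5 on BGI. All 3 MEFs were far above all 3 mESCs, and the log2 fold change was -4.42 ± 0.26 (SE, edgeR adjusted p = 6.71e-11). On Illumina the corresponding peak held 9.42, 9.64 and 10.8 CPM in MEFs and 0.625, 0.413 and 0.868 in mESCs, a log2 fold change of -4.01 ± 0.27 (edgeR adjusted p = 2.55e-10). At this promoter a summit was called in 6 of 6 MEF samples and in 0 of 6 mESC samples, with a best -log10 p of 39.5 to 54.6 in BGI MEFs.

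The proximal promoter of Runx2 was open in both cell types. Its peak at chr17:44736211-44736712, within 1 kb also of the TSS of the antisense RNA gene Runx2os1, held 8.96, 9.99 and 11.6 CPM in BGI MEFs and 6.56, 9.99 and 8.32 in BGI mESCs. The groups overlapped and the log2 fold change of -0.36 ± 0.18 was not called (edgeR adjusted p = 0.0763), although it was called when mESC 3 was left out (-0.49, edgeR adjusted p = 0.0344). The Illumina peak gave -0.30 ± 0.17 (edgeR adjusted p = 0.109). A further P2 peak at chr17:44734571-44735072 gave -0.12 ± 0.19 on BGI, with overlapping groups. The caller found a summit here in all 12 samples.

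The ratio of the distal to the proximal promoter peak differed between the cell types at Runx2. On the log2 scale it was 0.21, -0.03 and -0.18 in BGI MEFs and -3.44, -4.12 and -3.79 in BGI mESCs, so that the peaks were about equally open in MEFs and P1 was far lower than P2 in mESCs. The difference was -3.78 ± 0.20 (SE, limma adjusted p = 3.02e-07), with 74.8% of the 751 genes that have a peak at a distal and a proximal promoter called in the same fit. On Illumina the ratio was -0.40, -0.36 and -0.63 in MEFs and -3.58, -4.58 and -3.82 in mESCs, a difference of -3.53 ± 0.25 (limma adjusted p = 1.11e-06), with 76.4% of 736 genes called. For Runx2 alone, a two-sided exact permutation test of 3 against 3 samples gave p = 0.1 on either platform, which is the smallest value that it can give.

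At Runx3 the same ratio did not pass the test. A P1 peak was present in the Illumina set alone, at chr4:135120293-135120794, which is also within 1 kb of a TSS of Gm16225. It held 6.30, 5.32 and 5.17 CPM in MEFs and 3.63, 5.13 and 5.15 in mESCs, with groups that did not overlap by a narrow margin and a log2 fold change of -0.32 ± 0.22 (edgeR adjusted p = 0.182). The log2 ratio of P1 to P2 was -0.25, -0.71 and -0.72 in MEFs and -1.60, -0.99 and -0.55 in mESCs, and the groups overlapped. The difference of -0.49 ± 0.25 had a limma adjusted p of 0.0995 (two-sided exact permutation p = 0.3). Without mESC 5 it was -0.74 with a limma adjusted p of 0.0159, so 1 library decided this call. Summits at P1 were called in all 12 samples, with a best -log10 p of 14 to 18.8 in BGI MEFs and 10.9 to 14.7 in BGI mESCs.

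**Figure D3:**
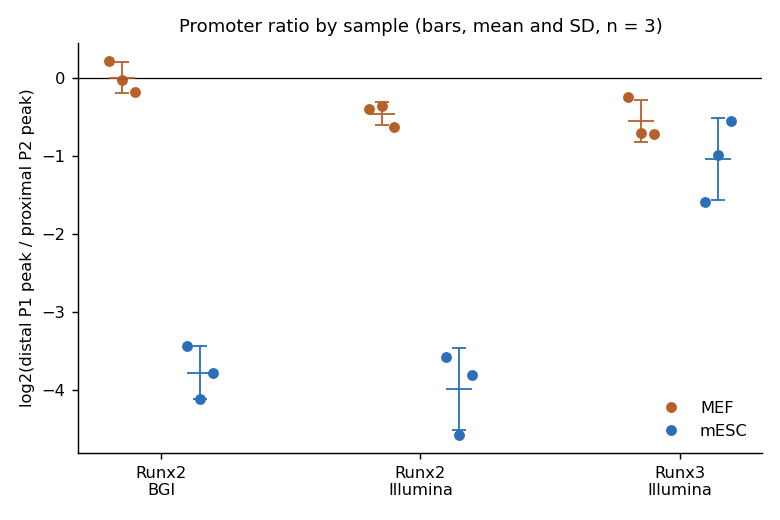
The log2 ratio of the distal P1 peak to the proximal P2 peak is given for each sample, with the mean and SD of the 3 samples of a cell type. At Runx2 the MEFs lie between -0.63 and 0.21 and the mESCs between -4.58 and -3.44 over both platforms, whereas at Runx3 on Illumina the cell types overlap.

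At Runx1 the distal promoter gave no consensus peak, so no ratio could be formed. No peak of either peak set lay within 1 kb of the P1 start. The caller found a weak summit there in 5 of 6 MEF samples, with a -log10 p of 8.11, 3.94 and 3.91 in BGI MEFs 1, 2 and 4 and of 5.40 and 6.70 in Illumina MEFs 1 and 2. It found none in Illumina MEF 4 and in 0 of 6 mESC samples, which were called at the lower depth given above. The nearest peaks, centred at -2.05 and 2.41 kb from the P1 start, were lower in mESCs on BGI (log2 fold changes of -2.33 ± 0.31 and -2.19 ± 0.27, edgeR adjusted p = 1.73e-06 and 6.70e-07).

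The proximal promoter of Runx1 was among the most open peaks of either cell type. Its core peak at chr16:92697190-92697691 held 36.1, 36.5 and 38.1 CPM in BGI MEFs and 31.5, 39.3 and 29.8 in BGI mESCs, above 95.2% and 94.7% of all peaks. The groups overlapped and the log2 fold change of -0.20 ± 0.11 was not called (edgeR adjusted p = 0.0960). On Illumina the same region gave 40.9, 40.5 and 41.6 CPM in MEFs and 34.3, 38.3 and 32.6 in mESCs, without overlap, and its log2 fold change of -0.27 ± 0.09 was called (edgeR adjusted p = 0.00917). The call rested on the choice of library and depth: on BGI it was gained without mESC 3 (-0.30, edgeR adjusted p = 0.00515) and on Illumina lost without mESC 5 (-0.21, edgeR adjusted p = 0.0541). The peaks on its flanks, centred at 0.545 and -0.699 kb from the P2 start, were lower in mESCs, with log2 fold changes of -0.98 ± 0.18 and -0.62 ± 0.16 on BGI (edgeR adjusted p = 5.37e-05 and 0.00135).

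At Runx3 the P2 peaks did not pass the test on either platform. The peak at chr4:135152192-135152693 held 4.29, 4.62 and 6.07 CPM in BGI MEFs and 6.30, 6.50 and 6.03 in BGI mESCs, with overlapping groups and a log2 fold change of 0.27 ± 0.21 (edgeR adjusted p = 0.241). A second peak, 33.2 kb from P1, held 7.16, 7.80 and 9.41 CPM in MEFs and 9.65, 10.2 and 11.3 in mESCs, without overlap, and gave 0.29 ± 0.17 (edgeR adjusted p = 0.110), which was called without MEF 4 (0.40, edgeR adjusted p = 0.0367). The Illumina values were 0.19 ± 0.18 and 0.09 ± 0.17.

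Cbfb, which has a single promoter, was the most open promoter of the family in MEFs. Its core peak at chr8:105170320-105170821 held 65.7, 58.2 and 58.4 CPM in BGI MEFs and 32.2, 30.2 and 30.7 in BGI mESCs, above 98.6% and 93.8% of all peaks. Every MEF exceeded every mESC, and the log2 fold change was -1.04 ± 0.09 (edgeR adjusted p = 9.45e-09), with -1.05 ± 0.09 on Illumina (edgeR adjusted p = 8.08e-09). A further peak 0.905 kb into the gene, within 1 kb also of the TSS of Gm22063, held 8.33 ± 0.364 CPM in MEFs and 8.27 ± 1.60 in mESCs on BGI, with a log2 fold change of -0.07 ± 0.18.

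In BGI MEFs the strongest promoter peaks were ordered Cbfb (60.7 ± 4.28 CPM), Runx1 P2 (36.9 ± 1.05), Runx2 P2 (10.2 ± 1.36), Runx2 P1 (10.1 ± 0.313) and Runx3 P2 (8.12 ± 1.16). Of neighbours in this order, only Runx2 P2 and P1 had overlapping values. In BGI mESCs the order was Runx1 P2 (33.5 ± 5.03 CPM), Cbfb (31.0 ± 1.07), Runx3 P2 (10.4 ± 0.842), Runx2 P2 (8.29 ± 1.72) and Runx2 P1 (0.491 ± 0.0164). Among neighbours, Runx1 P2 overlapped Cbfb and Runx3 P2 overlapped Runx2 P2, and the other neighbours did not overlap. The order depended on the platform: on Illumina Runx2 P2 (13.9 ± 2.54 CPM) lay above Runx2 P1 (9.96 ± 0.759) in MEFs without overlap, while P1 overlapped Runx3 P2 (9 ± 0.890), and in mESCs Runx2 P2 (11.6 ± 2.63) came before Runx3 P2 (9.89 ± 1.73) with overlapping values. It also depended on the Runx3 peak, which here is the one 33.2 kb from P1. The peak over the P2 start itself held 5 ± 0.948 CPM in BGI MEFs and 6.28 ± 0.24 in BGI mESCs. These values lay below all those of Runx2 P2 in the same cell type. On Illumina it held 8.27 ± 0.668 CPM in MEFs, below all values of Runx2 P1, and 9.71 ± 1.92 in mESCs.

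**Figure D4:**
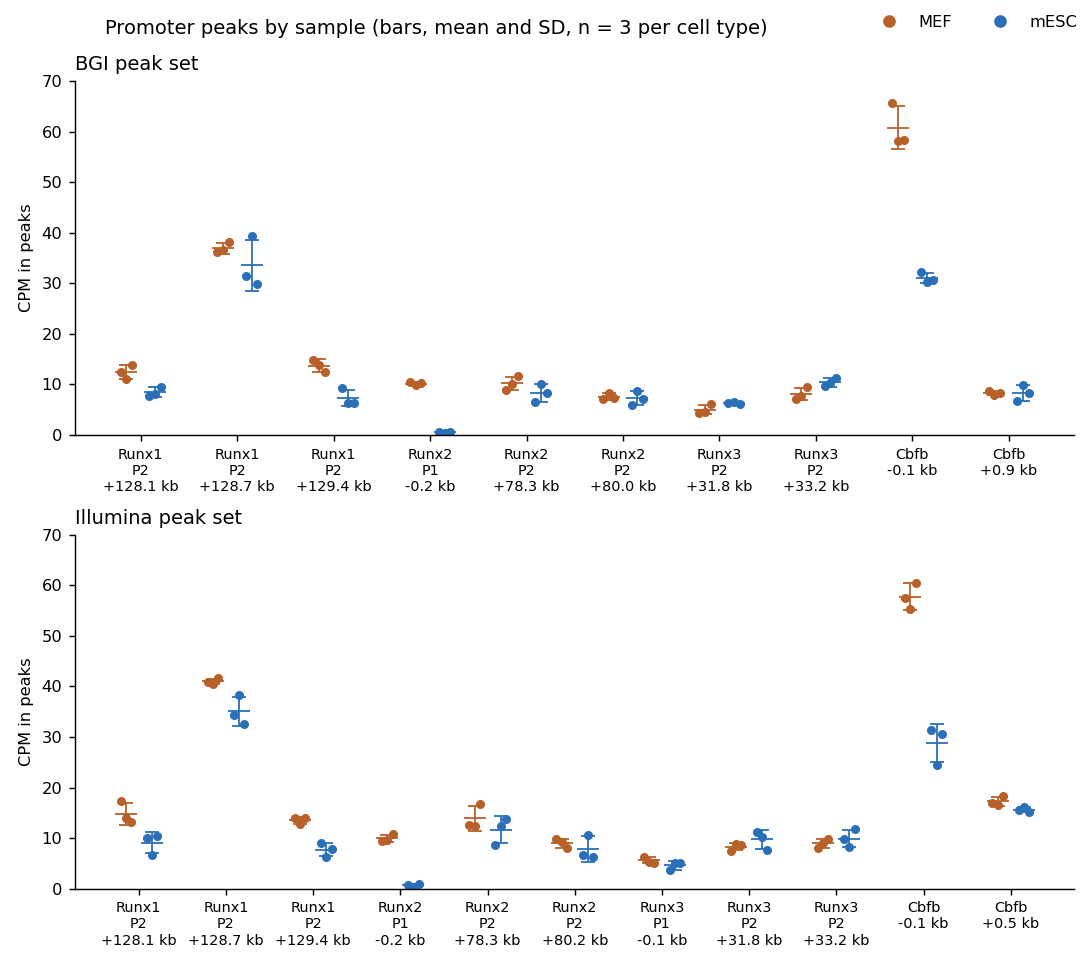
CPM in each promoter peak of the 4 genes is shown for each sample, with the mean and SD of 3 samples, for the BGI set above and the Illumina set below. Labels give the gene, the promoter and the distance of the peak from the first TSS. Runx2 P1 falls from about 10 CPM to under 1 CPM and Cbfb from 60.7 to 31.0 CPM, while the points of the cell types overlap at Runx2 P2.

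Away from the promoters of the 4 genes, the peaks described are mainly, at each gene, the 3 with the lowest p in each direction that were called alike on both platforms, and further ones were chosen after their values were seen, for their position or size. The central 150 bases of 8 of these elements are given here because they are among the peaks that differed most clearly between the cell types. They lie at chr16:92581995-92582144 and chr16:92684517-92684666 (Runx1), chr17:44709943-44710092, chr17:44500575-44500724 and chr17:44649107-44649256 (Runx2), chr4:135146938-135147087 and chr4:135158836-135158985 (Runx3) and chr8:105186669-105186818 (Cbfb), in the order of the lines, on the plus strand of GRCm38. None overlaps an annotated exon, and capitals mark the RUNX core and AP-1 motif as above.
Runx1 downstream element: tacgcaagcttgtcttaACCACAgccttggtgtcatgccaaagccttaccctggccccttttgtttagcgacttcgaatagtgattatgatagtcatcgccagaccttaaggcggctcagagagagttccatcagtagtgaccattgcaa
Runx1 intronic element: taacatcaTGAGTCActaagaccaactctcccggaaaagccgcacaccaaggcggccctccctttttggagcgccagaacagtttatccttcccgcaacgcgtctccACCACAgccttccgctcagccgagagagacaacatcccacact
Runx2 element at the Runx2os2 start: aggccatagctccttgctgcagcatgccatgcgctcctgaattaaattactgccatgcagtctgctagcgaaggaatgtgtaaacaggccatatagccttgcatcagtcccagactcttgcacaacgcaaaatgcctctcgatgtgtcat
Runx2 intronic element near the gene end: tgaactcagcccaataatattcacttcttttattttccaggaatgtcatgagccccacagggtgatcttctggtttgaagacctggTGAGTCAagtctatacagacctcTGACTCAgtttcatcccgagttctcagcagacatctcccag
Runx2 intronic element higher in mESCs: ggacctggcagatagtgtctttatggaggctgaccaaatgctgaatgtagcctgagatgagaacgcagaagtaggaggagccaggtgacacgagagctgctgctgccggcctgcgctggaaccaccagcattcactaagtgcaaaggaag
Runx3 intronic element lower in mESCs: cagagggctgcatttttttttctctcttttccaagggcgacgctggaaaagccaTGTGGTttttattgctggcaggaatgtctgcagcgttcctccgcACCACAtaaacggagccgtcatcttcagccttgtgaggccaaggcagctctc
Runx3 intronic element higher in mESCs: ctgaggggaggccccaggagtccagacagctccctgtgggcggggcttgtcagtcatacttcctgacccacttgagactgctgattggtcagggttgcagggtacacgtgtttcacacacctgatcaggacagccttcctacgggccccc
Cbfb intronic element: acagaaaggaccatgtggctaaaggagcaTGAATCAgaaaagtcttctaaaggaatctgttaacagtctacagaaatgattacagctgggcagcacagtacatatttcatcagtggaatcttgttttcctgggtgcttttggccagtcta

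Of the 26 Runx1 peaks of the BGI set, 22 were on the MEF list alone and 0 on the mESC list alone. This selection itself favours lower values in mESCs. Between the Runx1 promoters 9 of 11 peaks were lower in mESCs (median log2 fold change -3.16), and downstream of P2 11 of 12 were lower (median -2.08). Among all BGI peaks 43.2% were lower. The exceptions between the promoters were the P2 core and the peak centred at -1.48 kb from the P2 start (-0.21 ± 0.13, edgeR adjusted p = 0.125). The 19 intronic Runx1 peaks of the BGI set had a median log2 fold change of -2.90, 18 were lower in mESCs and none was higher. The largest Runx1 difference on BGI lay downstream of the gene, in the peak at chr16:92581820-92582321, with 26.5, 29.8 and 21.9 CPM in MEFs and 0.378, 0.828 and 1.12 CPM in mESCs on BGI. MEFs exceeded mESCs without overlap (log2 fold change -5.12 ± 0.24, edgeR adjusted p = 4.29e-12), and Illumina gave -4.92 ± 0.21. On Illumina the intronic peaks between the promoters at chr16:92710053-92710554 (-5.55 ± 0.41) and chr16:92744274-92744775 (-5.39 ± 0.38) had larger differences, with few reads in mESCs. The intronic peak at chr16:92684342-92684843, 142 kb from P1, held 14.6, 13.2 and 11.9 CPM against 1.01, 1.06 and 1.06 CPM (-3.73 ± 0.22, edgeR adjusted p = 6.02e-11). The intronic peak between the promoters at chr16:92788362-92788863 gave -4.41 ± 0.31 (edgeR adjusted p = 4.33e-10).

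A single Runx1 peak was higher in mESCs. This peak, at chr16:92605617-92606118, overlaps an exon near the 3′ end of the gene and held 8.49, 7.95 and 8.51 CPM in BGI MEFs and 22.9, 23.5 and 20.3 in BGI mESCs. All mESCs lay above all MEFs, with a log2 fold change of 1.35 ± 0.13 (edgeR adjusted p = 3.51e-08) and 1.56 ± 0.16 on Illumina.

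A Runx2 intronic peak centred at -1.46 kb from the P2 start was lower in mESCs (-1.55 ± 0.17, edgeR adjusted p = 1.70e-07), unlike the P2 peaks themselves. At Runx2 the 16 intronic peaks of the BGI set had a median log2 fold change of -3.89, and 14 were lower and 1 higher in mESCs. The lowest p among all Runx2 peaks belonged to a peak not counted with these 16, at chr17:44709768-44710269, 105 kb into the gene and within 1 kb of a TSS of the antisense RNA gene Runx2os2. It held 30.1, 26.7 and 25.1 CPM in BGI MEFs and 0.820, 0.591 and 0.497 in BGI mESCs, without overlap (-5.48 ± 0.21, edgeR adjusted p = 3.88e-13). Reads carry no strand in this assay, so openness cannot be assigned to Runx2 or to Runx2os2. The peaks at chr17:44546772-44547273 and chr17:44500400-44500901 both gave a log2 fold change of -4.08, with SEs of 0.20 and 0.21 (edgeR adjusted p = 5.12e-12 and 1.15e-11). The latter was the most open Runx2 peak in MEFs, with 46.1, 43.2 and 28.8 CPM, against 2.90, 2.66 and 1.74 CPM in mESCs. The lowest log2 fold change on BGI belonged to the intronic peak at chr17:44682904-44683405, which had almost no reads in mESCs (7.21 ± 2.81 CPM in MEFs and 0.0999 ± 0.122 in mESCs, -6.11 ± 0.53).

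Runx2 also held 2 peaks that were higher in mESCs. The intronic peak at chr17:44648932-44649433 held 1.25, 0.497 and 1.34 CPM in BGI MEFs and 8.64, 7.86 and 7.89 in BGI mESCs (2.90 ± 0.30, edgeR adjusted p = 6.56e-08). The peak at chr17:44821900-44822401, at -7.35 kb from P1 in an intron of the neighbouring gene Supt3, held 0, 0.596 and 0.199 CPM in BGI MEFs and 4.41, 4.97 and 6.09 in BGI mESCs (4.21 ± 0.52, edgeR adjusted p = 7.13e-07). In both peaks every mESC lay above every MEF. These low MEF levels rest on few reads, and the Illumina values were 3.04 ± 0.25 and 4.57 ± 0.44. The BGI value of the upstream peak was 3.66 without MEF 1 and 5.59 without MEF 2, and its Illumina match was 5.25 without MEF 2.

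Supt3, which encodes a subunit of the SAGA coactivator complex, has its promoter inside Runx2 between P1 and P2. Its peak at chr17:44776785-44777286 held 29.2, 29.4 and 31.4 CPM in BGI MEFs and 28.2, 31.5 and 29.8 in BGI mESCs (-0.07 ± 0.10, edgeR adjusted p = 0.478). The matched Illumina peak was called at -0.32 ± 0.10 (edgeR adjusted p = 0.00526). A second Supt3 promoter peak of the BGI set, at chr17:44777329-44777830, was lower in mESCs, with 18.1, 16.5 and 19.3 CPM in MEFs and 10.3, 11.2 and 9.82 in mESCs, without overlap (-0.85 ± 0.13, edgeR adjusted p = 1.43e-05).

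On BGI, Runx3 went mostly the other way, with a median log2 fold change of 1.06. On Illumina this was less clear: the median was 0.19, and 45.5% of the 11 peaks were higher, beside 42.1% of all peaks. There the intronic peak at chr4:135128709-135129210 was also called lower, with overlapping groups (-0.52 ± 0.22, edgeR adjusted p = 0.0348). The intronic peak at chr4:135158661-135159162, 38.3 kb from P1, held 1.85, 2.58 and 2.39 CPM in BGI MEFs and 10.7, 9.05 and 14.5 in BGI mESCs (2.26 ± 0.23, edgeR adjusted p = 4.86e-08). The intronic peak at chr4:135166519-135167020 held 7.25, 8.10 and 10.3 CPM against 25.5, 20.2 and 27.1 CPM (1.44 ± 0.15, edgeR adjusted p = 7.56e-08), and a peak upstream of P1 at chr4:135105991-135106492 gave 2.87 ± 0.32 (edgeR adjusted p = 1.68e-07). The groups did not overlap in any of these 3 peaks. The exception on BGI was the intronic peak at chr4:135146763-135147264, at -5.48 kb from the P2 start, with 19.5, 18.4 and 22.1 CPM in BGI MEFs and 1.01, 1.01 and 0.559 in BGI mESCs (-4.59 ± 0.22, edgeR adjusted p = 4.45e-12). Its Illumina value was -4.67 ± 0.23, and the 150 bases printed hold the RUNX core once in each orientation. Between this peak and P2, the intronic peak at chr4:135150358-135150859 was higher in mESCs (6.12 ± 1.30 against 14.9 ± 1.12 CPM, 1.21 ± 0.17, edgeR adjusted p = 4.34e-06), so that neighbouring Runx3 peaks moved in opposite directions.

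At Cbfb 3 peaks away from its promoter were lower in mESCs. The peak at chr8:105164082-105164583, within 1 kb of a TSS of Gm3830, held 19.4, 17.5 and 22.0 CPM in BGI MEFs and 2.08, 1.30 and 2.05 in BGI mESCs (-3.50 ± 0.20, edgeR adjusted p = 2.90e-11). The intronic peak at chr8:105186494-105186995 gave -3.67 ± 0.27 (edgeR adjusted p = 8.64e-10) and the intergenic peak at -17.5 kb from the promoter -1.14 ± 0.17 (edgeR adjusted p = 7.04e-06). In all 3 peaks MEFs and mESCs did not overlap. The promoter of D230025D16Rik past the gene end, at chr8:105224977-105225478, was not called (-0.07 ± 0.10).

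Family peaks were compared with all peaks for 3 motifs over their 502 bp. Both strands were searched in the 91285 BGI peaks with sequence. The RUNX core was found in 27 of 66 BGI family peaks (40.9%), beside 31.8% of all BGI peaks, and the longer form TGTGGTT, which contains the core, in 13 (19.7%), beside 10.9%. AP-1, bound by FOS and JUN proteins, was found in 24 (36.4%), beside 25.2% of all peaks. Among the 45 family peaks lower in mESCs, 23 (51.1%) held AP-1 and 19 (42.2%) the RUNX core, while among all BGI peaks lower in mESCs the shares were 35.6% and 34.1%. Of the 9 family peaks higher in mESCs, 1 (11.1%) held AP-1 and 5 (55.6%) the RUNX core, beside 18.6% and 31.8% of all BGI peaks higher in mESCs. The longer RUNX form was found in 12 of the 45 lower family peaks (26.7%, beside 13.2% of all lower peaks). It was found in 0 of the 9 higher ones, beside 9.56% of all higher peaks. With 9 higher peaks, 1 peak moves these shares widely, and nothing is read from them. Neighbouring peaks share sequence context and no test of these shares was made.

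Partners and targets of the RUNX factors, in lists put together from general knowledge, were followed at their strongest promoter peak. Among co-activators, corepressors and partners, 23 of 23 genes had a promoter peak, and 2 were higher and 13 lower in mESCs on BGI (2 and 14 on Illumina). Over all promoter peaks of protein-coding genes, 23.3% were higher and 43.5% lower on BGI, and 23.8% and 45.1% on Illumina, and the median log2 fold change was -0.27 in the list and -0.17 over all. Lower genes included Smad3, which carries TGF-β signals to RUNX complexes (-1.49 ± 0.10, edgeR adjusted p = 4.60e-10), Hdac3, a histone deacetylase (-0.94 ± 0.10, edgeR adjusted p = 1.33e-07), Ets1, which binds DNA together with RUNX1 (-0.89 ± 0.09, edgeR adjusted p = 8.46e-08), and Crebbp, a histone acetyltransferase (-0.86 ± 0.10, edgeR adjusted p = 5.59e-07). Higher genes were Kat6a (0.52 ± 0.17, edgeR adjusted p = 0.00842) and Tle4 (0.29 ± 0.09, edgeR adjusted p = 0.00484), an acetyltransferase and a Groucho corepressor.

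Among skeletal genes linked to RUNX2, 14 of 18 had a promoter peak on BGI, and 3 of these were higher in mESCs and 6 lower, with a median of -0.26. These counts are close to the background over all promoter peaks (23.3% higher and 43.5% lower), so they are no result about the list. The collagen genes Col1a1 (-1.59 ± 0.11) and Col1a2 (-2.67 ± 0.12) and the mesenchymal factors Twist1 (-2.15 ± 0.15) and Twist2 (-2.61 ± 0.14) were lower, and these 4 are also in the fibroblast marker list. Sp7, the osteoblast factor downstream of RUNX2, was lower as well (-1.17 ± 0.25, edgeR adjusted p = 0.000331) but had no promoter peak in the Illumina set. Spp1, which encodes osteopontin, went the opposite way, with 1.26 ± 0.378 CPM in MEFs and 23.7 ± 2.88 in mESCs (4.16 ± 0.21, edgeR adjusted p = 8.52e-12). No promoter peak was found for Bglap, Ibsp, Col10a1 or Mmp13.

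Of 18 blood and lymphoid targets of RUNX1 and RUNX3 found in the annotation, 9 had a promoter peak on BGI, with 4 higher in mESCs and 4 lower, beside 23.3% higher and 43.5% lower over all promoter peaks. Gfi1b, a repressor of blood progenitors, was higher (1.44 ± 0.21, edgeR adjusted p = 5.65e-06, and 2.64 ± 0.22 on Illumina), as was Tal1 (0.65 ± 0.21, edgeR adjusted p = 0.00763), which is needed for blood formation. Csf1r, the receptor for macrophage colony-stimulating factor, was lower (-2.97 ± 0.25, edgeR adjusted p = 4.14e-09), as was Mpo, the myeloperoxidase gene (-0.45 ± 0.19, edgeR adjusted p = 0.0388), which had no promoter peak in the Illumina set. On Illumina 8 genes had a peak, with 3 higher and 2 lower, beside 23.8% and 45.1% over all promoter peaks. With 9 and 8 genes, 1 gene moves these shares widely, and nothing is read from them about the list. The genes without a peak included Spi1, Cd4 and Cd8a.

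The instruments were compared within each cell type, which is the question the study set out with, at peaks called in that cell type whose widths ranged from 502 bp upwards. In MEFs 1 of 63 family peaks differed between BGI and Illumina (4.06% of all 61891 MEF peaks), and in mESCs 2 of 23 did (3.23% of all 67063 mESC peaks), with all 3 lower on BGI. With the library as a block, which pairs the readings of a library, 10 of 63 were called in MEFs (29.2% of all peaks), 4 higher and 6 lower on BGI, and 4 of 23 in mESCs (21.3% of all peaks), all lower. No family peak differed by 1 or more on the log2 scale, the range being -0.73 to 0.36 for MEFs and -0.69 to 0.30 for mESCs.

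Without the block, the 3 called peaks were promoter peaks with 68.4% to 78.5% G+C. These calls were not stable: edgeR called 0 in MEFs without library 1 or 2, and 0 in mESCs without library 1, 3 or 5 or with RLE size factors. The promoter peak of Cbfb at chr8:105170948-105171830, with 70% G+C, held 15.4, 15.6 and 16.5 CPM in BGI MEFs and 24.0, 24.0 and 26.4 in Illumina MEFs (-0.67 ± 0.10, edgeR adjusted p = 0.00952), without overlap. The Runx3 P2 peak, with 78.5% G+C, held 6.44, 6.66 and 6.08 CPM in BGI mESCs and 11.4, 10.8 and 7.69 in Illumina mESCs (-0.69 ± 0.17, edgeR adjusted p = 0.0480). The Runx2 P2 peak at chr17:44735933-44736697, with 68.4% G+C, held 11.1, 14.2 and 12.4 CPM against 15.5, 19.0 and 19.6 CPM (-0.57 ± 0.13, edgeR adjusted p = 0.0360). In both mESC peaks every BGI value lay below every Illumina value. With the block, the 4 MEF peaks higher on BGI lay away from promoters at 52.1% to 54.2% G+C, namely the Runx3 intronic element lower in mESCs (0.35 ± 0.08, edgeR adjusted p = 0.00017), Runx2 peaks in introns starting at 44546771 (0.27 ± 0.08, edgeR adjusted p = 0.00482) and 44500400 (0.15 ± 0.06, edgeR adjusted p = 0.0437), and the Runx1 downstream element (0.23 ± 0.07, edgeR adjusted p = 0.00661). The 6 lower on BGI were promoter peaks, 5 of the family genes and 1 of Supt3, among them Runx3 P2 (-0.73 ± 0.12, edgeR adjusted p = 2.73e-06), and in mESCs the 4 lower were 3 promoter peaks of Runx2 and Runx3 and 1 of Supt3. Across the 63 MEF family peaks, G+C and the log2 fold change of the blocked fit had a Pearson correlation of -0.62, across the 23 mESC family peaks of -0.77, and across all peaks of -0.67 and -0.65, which is a description over peaks that share libraries and depth. The part of base composition in the platform result was not tested.

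**Figure D5:**
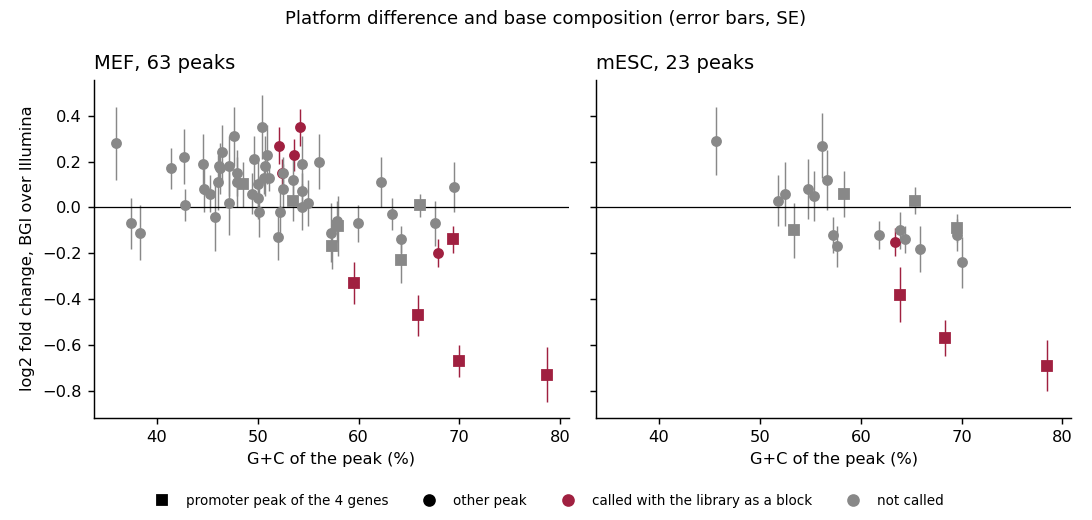
The log2 fold change of BGI over Illumina from the blocked fit, with its SE, is plotted against the G+C content (%) of each family peak, for MEFs on the left and mESCs on the right. Squares are promoter peaks of the 4 genes and red points were called with the library as a block. The lowest points, at -0.73 in MEFs and -0.69 in mESCs, are the Runx3 P2 peak with 78.7% and 78.5% G+C.

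The difference between the cell types was then set side by side on both platforms. Of the 53 BGI family peaks matched on Illumina, 49 had the same call, and the other 4 were not called on BGI and lower on Illumina. A joint fit of all 12 samples at the BGI peaks, with the library as a block, looked for a differing effect of cell type between platforms (interaction term). It was called at 0 of 66 family peaks and at 0.386% of all peaks (edgeR). Of the 66, 7 had an unadjusted p under 0.05, beside 12094 of all 91354 peaks, so this count is no result about the family. A p that misses the threshold does not show that the platforms act alike.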

How the data were processed

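Accessibility was analysed in 12 samples, 6 Omni-ATAC-seq libraries each sequenced on 2 platforms, with 3 samples per group. Per the labels and the study's methods, the authors trimmed Illumina reads from 150 to 100 bases, aligned reads to mm10, called peaks with MACS2, kept peaks reproducible within a cell type, and deposited raw read counts per peak. In the deposited narrowPeak files, the authors' caller gives a -log10 p, a fold enrichment (a linear ratio) and a score per summit. The columns without a platform suffix were taken as Illumina. Counts were tested with edgeR 4.0.16 (TMM, filterByExpr, quasi-likelihood, 3 against 3 samples, Benjamini-Hochberg over all peaks of a table, called at 0.05), and CPM was computed on reads in peaks. Promoter ratios were tested with limma 3.58.1 on log2 CPM (prior count of 2) over all genes with a distal and a proximal promoter peak. Promoters were peaks within 1 kb of a TSS of GENCODE M21, which is not the authors' annotation release, with TSSs merged within 2 kb. Sequences come from GRCm38, and that of 1 promoter is not reported here. DESeq2 1.42.0 served as an alternative. The scripts were tested on simulated data.

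Within a cell type, the platforms share libraries: deviations from group means correlated at 0.618 to 0.837 (MEFs) and 0.515 to 0.724 (mESCs) between readings of the same library, and at -0.676 to 0.293 and -0.51 to -0.115 between others. Named peaks were all promoter peaks of the 4 genes and the 3 lowest p per gene and direction called alike on both platforms. Other peaks named for their position or size were chosen after their values were seen. The family, its lists and tests were chosen with earlier results of these data known. CPM is relative to reads in peaks, so it moves with the share of reads that other peaks take, and peaks with few reads have the widest errors.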

Additional observations from a re-analysis of the deposited data

How the results depend on the processing

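Family peaks called in mESCs against MEFs numbered 46 to 56 on BGI and 44 to 57 on Illumina over the alternatives, which included DESeq2, its size factors (RLE), a mean count of at least 50, a log2 fold change of at least 1, gene bodies without extension and each sample left out. Of 285 values of 26 named BGI peaks, 277 kept direction and side of the threshold, as did 291 of 295 values of 27 Illumina peaks. The direction turned at uncalled promoter peaks: Cbfb 105171329 on BGI was 0.07 with down-sampled depths, 0.01 without MEF 1 and 0.06 without mESC 1 (range -0.20 to 0.06 with a sample left out), Runx2 44734571 on BGI was 0.02 with down-sampled depths, and Runx3 135153620 on Illumina was -0.03 without mESC 5 (range -0.03 to 0.16). Down-sampled depths set the median log2 fold change of all peaks at 0.065 instead of -0.078 (BGI) and 0.094 instead of -0.033 (Illumina). The Runx1 P2 core on Illumina lost its call with down-sampled depths (-0.14, edgeR adjusted p = 0.194), and Runx3 135153602 on BGI gained 1 (0.43, edgeR adjusted p = 0.0226). Runx2 44734335 on Illumina was called without mESC 3 (-0.59, edgeR adjusted p = 0.0129). The cause of these changes was not tested.

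The difference in the Runx2 promoter ratio lay between -4.06 and -3.06 (BGI) or -3.74 and -2.91 (Illumina), and that of Runx3 on Illumina between -0.74 and -0.21 with a sample left out. The interaction fit, and leaving out peaks at other genes' promoters (51 calls on BGI and 50 on Illumina), were chosen after seeing the data. With no extension of the gene bodies, 5 Illumina peaks were higher in mESCs. With a promoter window of 500 bp, blood markers lower in mESCs numbered 0 on both platforms, endothelial markers lower 1 on both, and Illumina blood and lymphoid targets lower 1.

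No paired analysis was possible because, between mESCs and MEFs, the cell types share only the number 1. Between platforms, the library block raised the calls from 1 to 10 in MEFs and from 2 to 4 in mESCs. DESeq2 called 3 (of 47 tested) in MEFs and 1 (of 12 tested) in mESCs, beside 5915 of 46292 and 2135 of 37158 among all peaks. RLE size factors in edgeR gave 0 in mESCs, beside 1563 of all 67063. In MEFs edgeR called 0 family peaks without library 1 or 2 (3 had an unadjusted p under 0.05) and 4 without library 4, beside 0, 0 and 6132 of all 61891 peaks. In mESCs it called 0 without library 1, 3 or 5 (2 to 3 had an unadjusted p under 0.05), beside 1, 1373 and 0 of all 67063, so without MEF library 1 or 2 and mESC library 1 or 5 the calls were lost genome-wide.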
